A study of Mus musculus with 6 samples.

Results

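Plasminogen activators are secreted serine proteases that cut plasminogen into plasmin, a protease that dissolves fibrin and opens the extracellular matrix. Urokinase (Plau) works at the cell surface, where its receptor (Plaur) holds it, and tissue plasminogen activator (Plat) works mainly on fibrin and on cell surfaces. Both are stopped by serpins, inhibitors that trap a protease in a covalent complex, among them protease nexin-1 (Serpine2). In the testis, plasminogen activators are known as products of Sertoli cells, and in culture fibroblasts are a common source of the whole system. The account below covers 4 genes of this system, Plau, Plaur, Plat and Serpine2, of the 32285 genes in the table. They were picked by name and function, with the difference between the groups in these libraries already known, so their own values are given as a description without a test.

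The 6 libraries came from cultured mouse GS cells, germline stem cells kept in culture after isolation from the testis. In both groups Cdkn1c, which encodes the CDK inhibitor p57, carried loxP sites on both alleles (p57 flox/flox). The 3 control libraries are labelled with that genotype alone and the 3 p57 KO libraries with p57 flox/flox-Cre, and RNA was taken 2 days after infection with an adenovirus that carries Cre. The mice are given as 3 days old in one label and as 10 days old in the design text, and the strain as BDF1 in one place and as C57BL/6 and 129 in the other. The sources used here do not say whether the control cells were infected with an empty virus, nor how many cultures stand behind the replicates, so that p-values cover only library-to-library spread, possibly technical.

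Libraries held 15662833 to 17893671 counts, and 14814 genes passed the filter on low counts. Levels are normalised read counts in CPM, read counts scaled to a common total by TMM, and fold changes are log2 values of p57 KO against control from edgeR, with their standard error (SE). A gene was called changed at an edgeR adjusted p under 0.05, which held for 23.3% of the tested genes (11.6% higher and 11.6% lower). Where counts at an unadjusted p under 0.05 appear, the share of all tested genes at that threshold is not given. Nothing is read from those counts. Cdkn1c itself had 19.9 to 21.4 CPM in control libraries and 8.51 to 9.44 CPM with Cre (log2 fold change -1.22, SE 0.09, edgeR adjusted p = 4.07e-09). Of 14 spermatogonial markers all were detected, and 11 fell and 0 rose. Their summed level was 5326 to 5483 CPM in control and 4522 to 4786 CPM in p57 KO. The fall was uneven, with log2 fold changes from -0.92 (Nanos2) to -0.01 (Lin28a, edgeR adjusted p = 0.844). Ddx4 had -0.04 (edgeR adjusted p = 0.239) and Id4 -0.54. With a score of fibroblast markers in the fit, 5 of the 14 fell, at 2.9% of all tested genes called. The markers of fibroblasts and feeder cells were higher in p57 KO and are described with the 4 genes. In such bulk RNA, fewer cells of a type and less RNA per cell cannot be told apart.

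The RefSeq promoter table (GRCm38.p6, the mm10 build) matched Plaur and Serpine2. The 250 bases before each start site are shown with the sequences of known promoter factors that they hold, since genes of such factors are described further on. Both are written 5′ to 3′, with capitals at matches to the searched motifs.
Plaur, chr7:24462233-24462482, plus strand: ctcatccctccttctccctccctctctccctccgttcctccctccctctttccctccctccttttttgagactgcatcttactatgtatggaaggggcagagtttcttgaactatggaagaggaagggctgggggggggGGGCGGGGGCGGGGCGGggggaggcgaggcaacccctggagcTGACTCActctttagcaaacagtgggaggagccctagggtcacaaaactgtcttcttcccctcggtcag
Serpine2, chr1:79858666-79858915, minus strand: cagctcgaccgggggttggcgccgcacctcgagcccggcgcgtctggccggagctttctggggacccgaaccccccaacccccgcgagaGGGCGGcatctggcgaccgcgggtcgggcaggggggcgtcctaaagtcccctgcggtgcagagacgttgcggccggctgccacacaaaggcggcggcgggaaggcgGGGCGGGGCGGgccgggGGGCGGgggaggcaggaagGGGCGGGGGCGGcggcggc

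The motifs were searched on both strands in the 300-base windows of the table, which run from 250 bases before to 50 bases after the start. The Plaur window held 1 AP-1 sequence (TGANTCA), at position -69 from the start site, and 3 Sp1 sequences (GGGCGG) at -111, -105 and -100, the last of which shares a base with the one before it. The Serpine2 window held 6 Sp1 sequences between positions -161 and -13, and those at -55 and -50 share a base. The RefSeq start of Serpine2 lies inside its longer GENCODE gene model. Of all 32851 windows, 7.81% hold the AP-1 sequence and 35.7% the Sp1 sequence. The CRE (TGACGTCA, in 1.79% of windows), TATA box (TATAAA, 13.6%), ETS (CCGGAAG, 8.86%) and E-box (CACGTG, 7.15%) sequences had no match in either window.

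Of the 4 genes, urokinase showed the widest gap between the groups. Plau lies on the plus strand of chromosome 14 from 20836660 to 20843385 (mm10) and overlaps no other annotated gene. Its level was 1.15, 2.00 and 1.21 CPM in control replicates 1, 2 and 3, and 4.42, 7.98 and 11.3 CPM in p57 KO replicates 1, 2 and 3. Every p57 KO library lay above every control library, and within p57 KO the level was lowest in replicate 1 and highest in replicate 3. The means were 1.46 ± 0.473 CPM in control against 7.88 ± 3.42 CPM in p57 KO (SD, n = 3 per group), a log2 fold change of 2.43 (SE 0.47). These values rest on 19, 34 and 19 counts in control and 70, 131 and 201 in p57 KO. By log2 fold change Plau was number 15 of the 14814 tested genes, a description only, since the gene was chosen with this contrast known.

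Tissue plasminogen activator, the other activator, overlapped between the groups. Plat lies on the plus strand of chromosome 8 from 22757727 to 22782844. It had 49.3, 51.6 and 46.3 CPM in control and 49.98, 53.8 and 52.2 CPM in p57 KO. The log2 fold change was 0.08 (SE 0.05), with means of 49.1 ± 2.65 and 52.0 ± 1.92 CPM (SD, n = 3 per group). The ratio of Plau to Plat in CPM was 0.0234 to 0.0388 in control libraries and 0.0884 to 0.216 in p57 KO libraries.

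The urokinase receptor overlapped between the groups as well. Plaur, which encodes a GPI-anchored protein, lies on the plus strand of chromosome 7 from 24462484 to 24475968. Its level was 4.97, 6.30 and 7.29 CPM in control and 7.20, 8.04 and 8.51 CPM in p57 KO. The highest control library lay just above the lowest p57 KO library, so the groups overlapped. Means were 6.19 ± 1.16 and 7.92 ± 0.668 CPM (SD, n = 3 per group), and the log2 fold change was 0.36 (SE 0.14). Without control replicate 1, the lowest library, it was 0.22, and without control replicate 3 it was 0.49.

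Protease nexin-1 had the highest CPM of the 4 and did not overlap between the groups. Serpine2 encodes a serpin that inhibits urokinase, tissue plasminogen activator, plasmin and thrombin, and lies on chromosome 1 from 79794197 to 79861180 (minus strand). It had 100.2, 126.5 and 111 CPM in control and 161, 207 and 258 CPM in p57 KO. As for Plau, p57 KO replicate 1 was the lowest and replicate 3 the highest of its group. The means were 112.5 ± 13.2 and 208 ± 48.6 CPM (SD, n = 3 per group), with a log2 fold change of 0.89 (SE 0.22). All p57 KO libraries lay above all control libraries for 2 of the 4 genes, Plau and Serpine2, and the same separation was seen for 19.5% of all tested genes. Because the genes were chosen with this contrast known, nothing is read from that count.

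**Figure D1:**
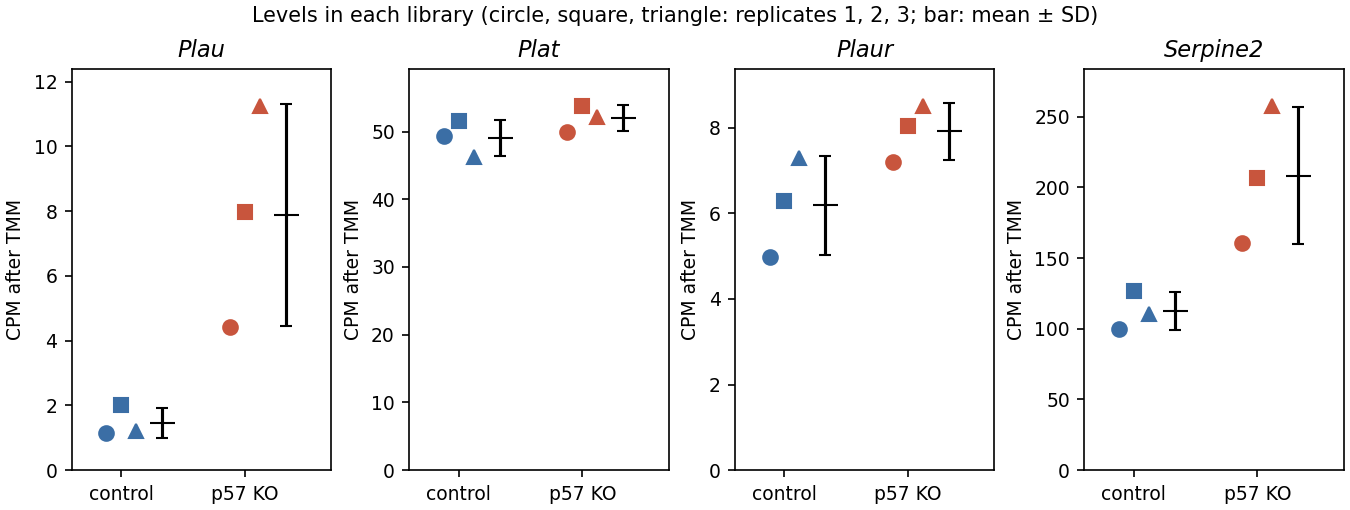
Level of Plau, Plat, Plaur and Serpine2 in CPM after TMM scaling, each on its own axis from 0, in 3 control (blue) and 3 p57 KO (red) libraries, with mean ± SD in black. Plau and Serpine2 do not overlap between the groups, while Plat and Plaur do.

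Levels can be compared between genes only per length. Per kb of exon sequence, as the union of all annotated exons, the order in control was Serpine2 with 13.6 ± 1.60, Plat with 7.86 ± 0.424, Plaur with 2.36 ± 0.443 and Plau with 0.615 ± 0.200 CPM per kb (SD, n = 3). No neighbours in this order overlapped between control libraries. In p57 KO the order was Serpine2 with 25.1 ± 5.86, Plat with 8.33 ± 0.308, Plau with 3.33 ± 1.45 and Plaur with 3.02 ± 0.255 CPM per kb (SD, n = 3). There Plau spanned 1.87 to 4.76 and Plaur 2.75 to 3.25 CPM per kb, so the order of these 2 was not set beyond their spread. The exon union is long for Plat (6241 bp) and Serpine2 (8287 bp). With the length of the principal transcript in its place, a choice made after seeing the data, control levels were 50.9, 19.4, 4.11 and 0.622 CPM per kb in the same order, while the p57 KO means of Plaur and Plau were 5.26 and 3.37.

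**Figure D2:**
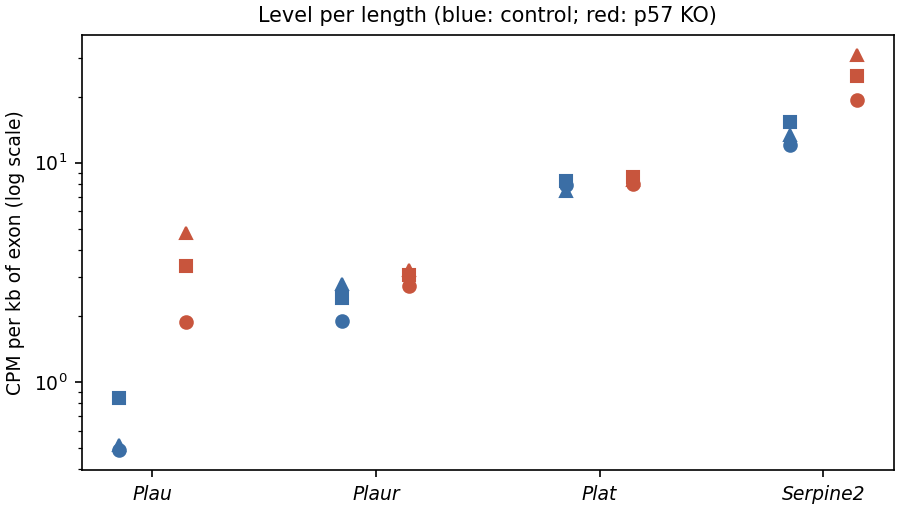
Level per kb of exon, on a log axis, of each gene in control (blue) and p57 KO (red) libraries, with circle, square and triangle for replicates 1, 2 and 3. In control the 4 genes form separate steps from Plau at the bottom to Serpine2 at the top, and in p57 KO Plau overlaps Plaur.

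Markers of fibroblasts and feeder cells moved in the same libraries. Of 23 such markers, 22 were tested, and all 22 had a higher fitted level in p57 KO. Their median log2 fold change was 1.53 against -0.0019 over all tested genes. Of the 22, 5 rose and 17 did not pass, which is 22.7% called against 23.3% of all tested genes. DESeq2 called 17 of the 22, against 16.5% of all tested genes. With 1 library left out, edgeR called 2 in the absence of control replicate 1 or control replicate 3 (16.7% and 15.6% of all tested genes). It called 3 in the absence of p57 KO replicate 2 (17.4% of all tested genes) and 16 in the absence of p57 KO replicate 1 (26.7%). Their summed level was 636 to 807 CPM in control and 1004 to 1899 CPM in p57 KO, a ratio of means of 2.01. Each marker had counts in both groups, and Fap had 0 counts in control replicate 1. Col5a1 made up 40.9% of the control sum and had a log2 fold change of only 0.29, and without it the ratio was 2.56. As a score, the mean log2 CPM of the 22 markers, p57 KO replicates 1, 2 and 3 lay 0.63, 1.25 and 1.81 above the control mean, and control replicate 2 lay 0.36 above it. The order of the p57 KO libraries by this score is that of Plau, Serpine2 and Plaur, but not of Plat.

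Set against the fibroblast score of its own library, each of the 4 genes took a different place. Plau exceeded the change of the score by 0.93, 1.15 and 1.08 log2 units in p57 KO replicates 1, 2 and 3, while the control libraries lay between -0.06 and 0.11 on the same scale. The excess was thus similar in all p57 KO libraries, although the level of Plau itself differed between them. The markers differ among themselves on this scale, added after seeing the data: their p57 KO means ran from -1.22 (Twist1) to 0.60 (Fbln2) around a median of 0.18, with 16 of 22 above the score. The p57 KO mean of Plau was 1.06, and 0 of the 22 markers lay above it. Because Plau was chosen with this contrast known, nothing is read from that place. Serpine2 moved somewhat less than the score, by -0.11, -0.36 and -0.61 log2 units in p57 KO, against -0.18 to 0.13 in control. Plaur lagged behind the score by -0.40, -0.86 and -1.34 and Plat by -0.61, -1.11 and -1.72. Relative to the summed CPM of the markers, the ratio of p57 KO to control was 2.67 for Plau, 0.936 for Serpine2, 0.663 for Plaur and 0.557 for Plat. With Col5a1 left out of the sum, a choice made after seeing the data, it was 2.13, 0.752, 0.536 and 0.452. In an edgeR fit with the score as a covariate, the log2 fold change was 0.96 for Plau, 0.17 for Serpine2, 0.11 for Plaur and -0.0165 for Plat. Score and group are strongly linked here, since every p57 KO library scores above every control library.

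**Figure D3:**
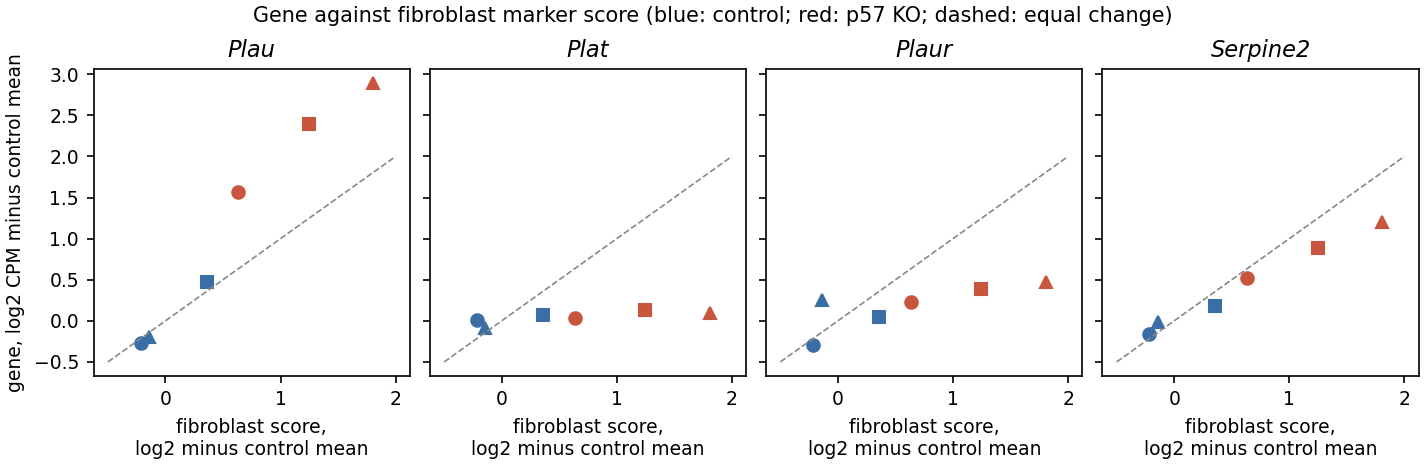
Log2 CPM of each gene minus its control mean (vertical axis) against the fibroblast marker score minus its control mean (horizontal axis), for control (blue) and p57 KO (red) replicates 1, 2 and 3 (circle, square, triangle). The dashed line marks equal change: Plau lies about 1 log2 unit above it in p57 KO (0.93 to 1.15), Serpine2 falls slightly below it, Plaur reaches 0.47 and Plat 0.13.

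By summed level, markers of the other somatic cell types shifted less than the fibroblast markers, with ratios of means from 0.918 (Leydig) to 1.45 (macrophage). Single genes differed from their sums. The macrophage marker Lyz2 had a log2 fold change of 2.13 (SE 0.45), above the fibroblast median of 1.53, while Cd68 had 0.40. Among muscle markers Tagln had 1.44 and Acta2 1.31, while Mylk had -0.04. In control, Cd68 averaged 12.4 CPM and Mylk 26.5 CPM, the largest parts of the macrophage and muscle sums. These sums mostly follow Cd68 and Mylk, so they do not show a smaller shift of the other macrophage and muscle markers. Smooth muscle and peritubular myoid markers rose in 4 of 5 tested genes, 80% called against 23.3% of all tested genes. Their summed level was 38.0 to 40.1 CPM in control and 47.8 to 53.4 CPM in p57 KO. Only 2 rose once control replicate 3 was left out, at 15.6% of all tested genes called. With the fibroblast score in the edgeR fit 0 of these 5 genes were called, at 2.9% of all tested genes called. At an unadjusted p under 0.05 there were 2, a threshold without a share of all tested genes here. Of 9 macrophage markers only Cd68 and Lyz2 could be tested, and both rose (sums of 12.7 to 13.7 and 17.8 to 22.0 CPM; neither was called with the score), while C1qa, Cx3cr1 and Tyrobp had fewer than 10 counts over all libraries. Sertoli cell markers, of interest because Sertoli cells make plasminogen activators in the testis, had sums of 39.1 to 45.0 CPM in control and 43.7 to 52.1 CPM in p57 KO. Of the 5 tested Sertoli markers 0 passed in edgeR, with 2 at an unadjusted p under 0.05. In limma-voom 0 passed and in DESeq2 1 rose (22.3% and 16.5% of all tested genes called). Leaving out 1 library, 0 or 1 passed in edgeR (15.6% to 26.7% of all tested genes called). That call was a fall without control replicate 3 or p57 KO replicate 2, and a rise without p57 KO replicate 1 or 3. Amh, Cldn11 and Dhh had under 0.3 CPM on average in both groups. Endothelial markers summed to 84.9 to 90.1 and 80.9 to 89.7 CPM, with 1 that rose and 2 that fell of 5 tested, 60% called (0 and 0 with the score). Leydig markers summed to 3.00 to 3.94 and 3.19 to 3.35 CPM, with Hsd3b1 at 0. The part of fibroblast, muscle and macrophage RNA in the differences of the 4 genes was not tested beyond the score.

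Genes with the most similar profile were sought over the 6 libraries among 11991 named genes of at least 2 CPM, by the root mean square difference of log2 CPM after centring on the control mean. Nearest to Plau were Ereg, the gene of the growth factor epiregulin (0.280 log2 units), S100a4, a calcium-binding protein of fibroblasts and other motile cells (0.285), and Osmr, the oncostatin M receptor (0.294). Ereg went from 2.10 ± 1.19 to 10.0 ± 5.58 CPM (SD, n = 3 per group). Nearest to Serpine2 were Col18a1, a basement membrane collagen (0.0659), Arl8a (0.0664) and Crip2 (0.0708). Plaur was nearest to Idh2 (0.0628), Faim2 (0.0680) and Nrip1 (0.0813), and Plat to Mrpl51, Las1l and Ccna2 (0.0173, 0.0192 and 0.0218), genes of nearly constant level. Among the 4 genes themselves Plaur and Plat were closest (0.274) and Plau and Plat farthest apart (1.61).

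The rest of the plasminogen system was read from 64 further genes in 5 role lists. Of these, 44 passed the filter on low counts, and 8 rose and 1 fell, which is 20.5% called against 23.3% of all tested genes. The share called was thus close to the background in edgeR with all libraries. The median log2 fold change of the 44 was 0.37, against -0.0019 over all tested genes, and 35 of the 44 had a fitted value above 0. DESeq2 called 20 of the 44 (19 higher), or 45.5% against 16.5% of all tested genes. Without p57 KO replicate 1, edgeR called 20 of 46 (19 higher), or 43.5% against 26.7% of all tested genes. With the fibroblast score edgeR called 1, St14, or 2.27% against 2.9%. Those 19 rises after leaving out p57 KO replicate 1 were 1 inhibitor, 3 genes of plasminogen binding, 9 receptors and partners, 2 activators of pro-urokinase and 4 downstream genes.

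**Figure D4:**
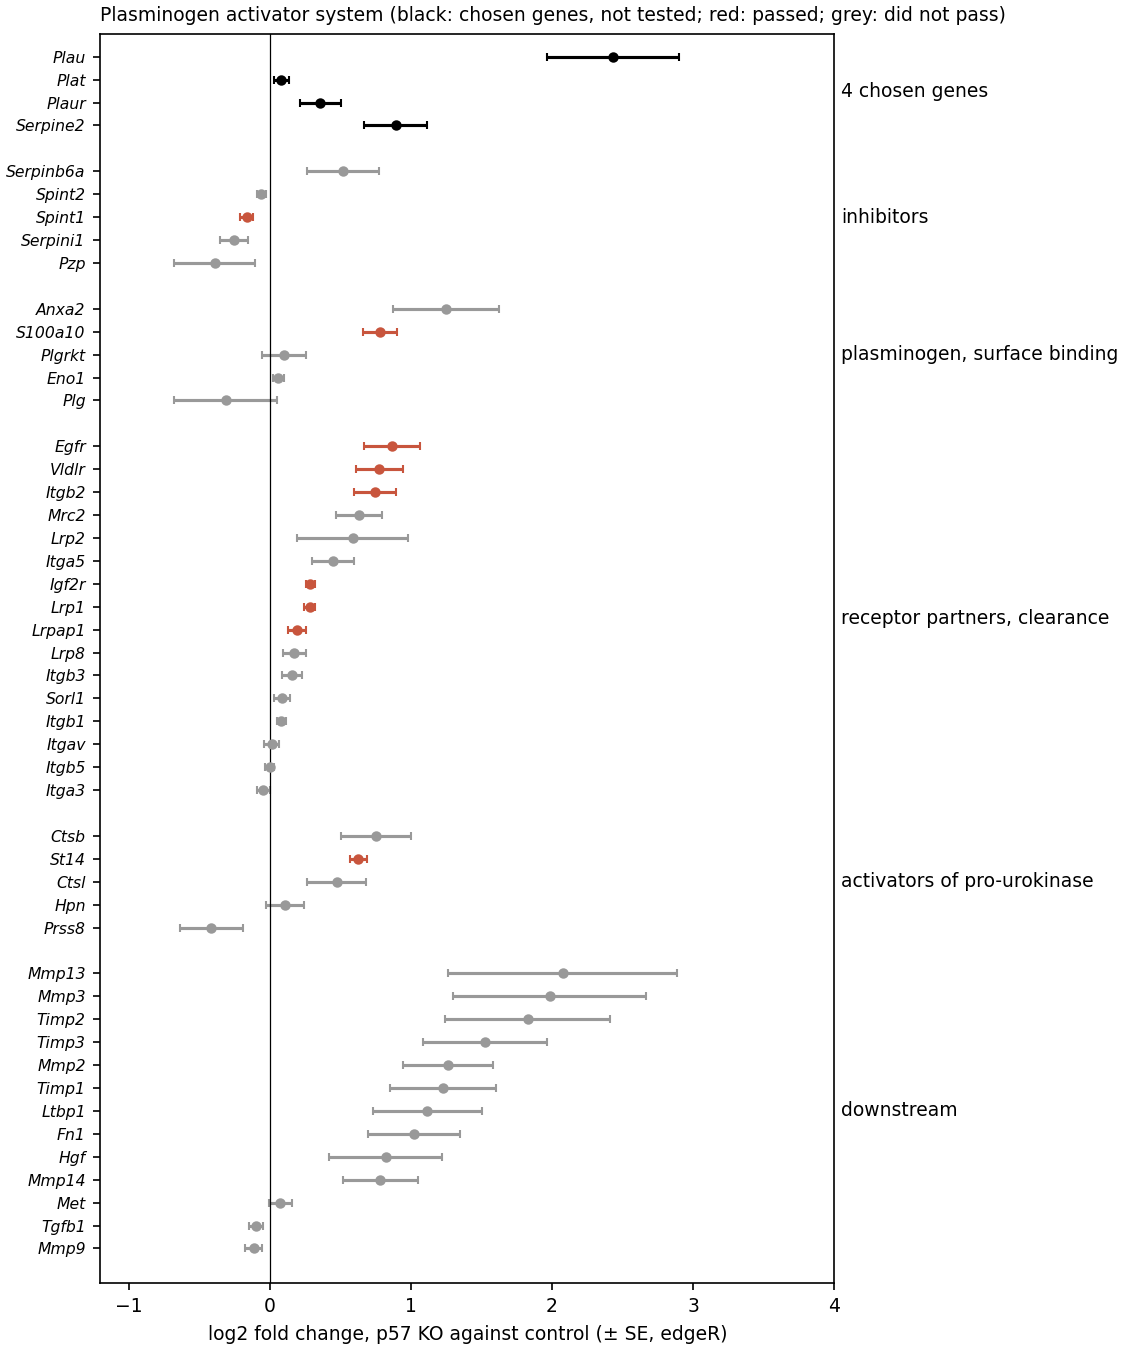
Log2 fold change of p57 KO against control with its SE for Plau, Plat, Plaur and Serpine2 (black) and for the 44 tested genes of the 5 role lists (red where the gene passed in edgeR, grey where it did not). The downstream genes hold large values with wide errors and no call, while the 8 genes that rose lie between 0.19 and 0.87 log2 units.

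Of 12 listed inhibitors, 5 were tested, and 20% were called in edgeR against 23.3% of all tested genes. Of the 5, 0 rose and 1 fell (median log2 fold change -0.16), and 2 had an unadjusted p under 0.05. DESeq2 and limma-voom gave the same counts, at 16.5% and 22.3% of all tested genes called. Spint1, a Kunitz-type inhibitor that acts on matriptase and HGF activator, fell from 126 ± 4.79 to 112 ± 7.38 CPM (mean ± SD, n = 3 per group), a log2 fold change of -0.16 (SE 0.04; adjusted p = 0.0124 in edgeR). That call was lost without control replicate 3 (-0.14, edgeR adjusted p = 0.0714), and the value turned to 0.0134 (adjusted p = 0.964) with the fibroblast score. PAI-2 (Serpinb2) and alpha2-antiplasmin (Serpinf2) averaged under 1 CPM in both groups and were not tested, and Serpina5 had no count in any library.

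Of the genes for plasminogen and its docking at the cell surface, 1 of 5 tested rose, 20% called against 23.3% of all tested genes. S100a10 encodes p11, which pairs with annexin A2 to bind plasminogen and tissue plasminogen activator. It had 8.55, 10.2 and 8.12 CPM in control and 12.9, 15.8 and 17.5 CPM in p57 KO, without overlap (log2 fold change 0.78, SE 0.12, edgeR adjusted p = 9.64e-05). With the score it had 0.28 (edgeR adjusted p = 0.493). Its partner Anxa2 had a larger but more variable value of 1.25 (SE 0.37, edgeR adjusted p = 0.0899), from 19.5 ± 3.62 to 46.4 ± 17.3 CPM (SD, n = 3 per group). Plg, the substrate of the whole pathway, was low, at 0.797 CPM in control against 0.638 CPM in p57 KO.

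Receptors that clear urokinase and its inhibitor complexes, and partners of the urokinase receptor, gave 6 rises and 0 falls among 16 tested genes. That is 37.5% called, against 23.3% of all tested genes (11.6% higher and 11.6% lower). Lrp1, the endocytic receptor that takes up protease-serpin complexes, rose from 867 ± 9.16 to 1054 ± 68.6 CPM (mean ± SD, n = 3 per group), a log2 fold change of 0.28 (SE 0.04; adjusted p = 0.000259 in edgeR). Igf2r, which binds the urokinase receptor and plasminogen, rose by 0.29 (SE 0.03, edgeR adjusted p = 5.59e-06). Vldlr, another receptor of this uptake route, rose by 0.775, Itgb2, an integrin chain, by 0.75 and Egfr, a signalling partner of the receptor, by 0.87, all at 3.06 to 4.34 CPM in control. Lrpap1, the chaperone of this receptor family, rose by 0.19 (SE 0.07, edgeR adjusted p = 0.0354). Lrpap1 was not called without control replicate 1 (0.14, edgeR adjusted p = 0.183), control replicate 3 (0.20, 0.086), or without either replicate 1 (0.19, 0.0532) or replicate 3 (0.16, 0.127) of p57 KO. With the fibroblast score none of the 6 was called in edgeR: Lrp1 had 0.16 (adjusted p = 0.0612), Igf2r 0.15 (0.0927), Itgb2 0.59 (0.261), Vldlr 0.28 (0.705), Lrpap1 0.08 (0.83) and Egfr 0.09 (0.945). At an unadjusted p under 0.05 that model left 4 of the 16 genes, without a share of all tested genes to set beside it. Lrp1 overlaps Gm16217, Igf2r overlaps Airn and Egfr overlaps Egfros, each on the other strand, and the strand setting of the counting is unknown here.

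Among the proteases that activate pro-urokinase, 1 of 5 tested genes rose, 20% called against 23.3% of all tested genes. St14 encodes matriptase, a membrane serine protease of epithelial cells that cuts pro-urokinase. Its level was 27.2, 29.0 and 26.1 CPM in control and 42.9, 42.1 and 42.2 CPM in p57 KO. The p57 KO libraries were almost equal to each other and all above control (log2 fold change 0.63, SE 0.06, edgeR adjusted p = 1.46e-07). With the fibroblast score St14 kept 0.60 (edgeR adjusted p = 0.00038). It overlaps Gm16071 on the other strand. The cathepsin genes Ctsb and Ctsl had 0.75 (SE 0.25, edgeR adjusted p = 0.111) and 0.47 (SE 0.21, edgeR adjusted p = 0.196).

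Downstream matrix proteases, their inhibitors and substrates had the highest median of the 5 role lists and no call. Of 13 tested, 0 passed in edgeR and 8 had an unadjusted p under 0.05, a threshold without a share of all tested genes here. Limma-voom called 0, against 22.3% of all tested genes. DESeq2 called 8, all higher, at a background of 16.5% of all tested genes called by DESeq2. The median log2 fold change was 1.12. Mmp3, the gene of stromelysin-1, which plasmin can activate, had 11.4, 24.5 and 11.8 CPM in control and 27.0, 57.6 and 104 CPM in p57 KO (log2 fold change 1.98, SE 0.68, edgeR adjusted p = 0.123). The spread among the p57 KO libraries was thus wider than the gap between the groups' nearest libraries. Mmp2 had 1.26 (SE 0.32, edgeR adjusted p = 0.06) and Mmp9 -0.11 (SE 0.06, edgeR adjusted p = 0.167). Leaving out p57 KO replicate 1, 4 downstream genes rose in edgeR (26.7% of all tested genes were called), and leaving out replicate 3 of that group, 3 rose (18.2%). Leaving out control replicate 2, 1 rose (18.5% of all tested genes called), and leaving out control replicate 1, 1 fell (16.7%). With the fibroblast score the median of the list was -0.06 and 0 genes were called in edgeR, with 1 at an unadjusted p under 0.05.

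The urokinase receptor belongs to a family that shares the three-finger Ly6/uPAR fold. Of 27 relatives, 11 were tested, and 3 rose and 0 fell, 27.3% called against 23.3% of all tested genes. Lynx1, a modulator of nicotinic receptors, rose by 0.81 (SE 0.12, edgeR adjusted p = 0.000129), Ly6e, an interferon-inducible surface protein gene, by 0.42 (SE 0.07, edgeR adjusted p = 0.00111) and Ly6h by 0.49 (SE 0.14, edgeR adjusted p = 0.0134). Tex101, the germ cell member and the relative of highest CPM, averaged 168 ± 7.47 CPM in control libraries against 160 ± 3.67 CPM with Cre (SD, n = 3 per group), a log2 fold change of -0.07 (SE 0.03; adjusted p = 0.128 in edgeR). Ly6h was not called without control replicate 1 (0.46, edgeR adjusted p = 0.0523), control replicate 2 (0.44, 0.0651) or p57 KO replicate 1 (0.36, 0.0671). With the score, Ly6h had 0.95 (edgeR adjusted p = 0.007), Lynx1 0.34 (0.401) and Ly6e 0.17 (0.37).

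Transcription factors known to act at plasminogen activator promoters changed in both directions. Of 17, 9 rose and 3 fell, 70.6% called against 23.3% of all tested genes, and the median log2 fold change was 0.14. The list was chosen with earlier results of these data known, so nothing is read from that share. In DESeq2 7 rose and 2 fell, at 16.5% of all tested genes called. The AP-1 subunit gene Jun had 31.6, 35.7 and 38.7 CPM in control and 120, 107 and 128 CPM in p57 KO, without overlap (log2 fold change 1.74, SE 0.10; adjusted p = 7.13e-05 in edgeR). The gene Fosl1, which encodes the AP-1 subunit FRA-1, rose by 0.86 and Atf3, a stress-induced partner of JUN, by 2.37. Etv5, an ETS factor of spermatogonial self-renewal, fell by 0.20 log2 (SE 0.03, edgeR adjusted p = 5.46e-05). For Atf3 the p57 KO libraries lay close together, at 7.95, 7.61 and 9.13 CPM in replicates 1, 2 and 3. With the fibroblast score Jun had 1.64 (edgeR adjusted p = 5.5e-07), Atf3 2.07 (3.32e-06), Fosl1 0.55 (0.0363) and Etv5 -0.13 (0.157). With the score 4 of the 17 rose and 0 fell, at 2.9% of all tested genes called. Leaving out 1 library, 6 to 8 rose and 2 or 3 fell, at 15.6% to 26.7% of all tested genes called. Jun overlaps Junos, Fosl1 overlaps Ccdc85b and Atf3 overlaps Gm24748 on the other strand.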

How the data were processed

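The values are raw read counts that the authors deposited without normalization, in a column for each library. Per the submitters' processing notes, reads were handled with HTSeq 2.0.2, HISAT2 2.2.1, cutadapt 3.4 and bcl2fastq 2.20 on mm10. The sources used here give no annotation, strand setting or rule for multiply mapped reads. Counts were filtered with filterByExpr (14814 genes left), scaled by TMM and tested with edgeR 4.0.16 (limma 3.58.1, R 4.3.3) by the robust quasi-likelihood test with the group as the only term and Benjamini-Hochberg adjustment over all tested genes. SE is the log2 fold change divided by the square root of F. Positions come from GENCODE M21 (32158 of 32285 identifiers found). On simulated counts for 14814 genes, 48% of 1.2-fold, 70% of 1.5-fold, 86% of 2-fold and 96% of 4-fold changes were recovered, 50 genes each, with 6 false calls among 156. Each gene was drawn independently, so the simulation holds no variation that genes share within a library. Its rates were not checked for genes that vary together, such as the fibroblast markers.

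The members, lists and alternatives were chosen with earlier results of these data known. A gene of the inhibitor list is not reported here and enters no list count. Named by rule were the 4 genes, Cdkn1c, called system genes of at least 1 CPM, up to 4 called genes of smallest p in each of the other 2 lists, and the 3 most similar profiles per gene (prior count 2). Other genes with values were chosen after their values were seen, among them Anxa2, Plg, Mmp2, Mmp3, Mmp9, Ctsb, Ctsl, Tex101 and the markers named. No replicate pair agreed within sampling noise (chi-square per degree of freedom 1.69 to 5.97 over genes of at least 20 counts). Alternatives were DESeq2 1.42.0, limma-voom, RLE size factors, other filters, a replicate block, single libraries left out and the fibroblast score.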

Additional observations from a re-analysis of the deposited data

How the results depend on the processing

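RLE size factors, limma-voom, no filter and the stricter filter (at least 1 CPM in 3 libraries) kept direction and call for all 17 named genes other than Plau, Plaur, Plat and Serpine2, and left the values of these 4 within 1 SD of their replicates. DESeq2 lost the calls of Lrpap1 and Ly6h, and called 20 system genes against 9 (45.5% against 20.5%), with 2447 of all genes called against 3450 (16.5% against 23.3%). Given the fibroblast score, 430 of all genes were called against 3450, and 1 system gene; Plau had 0.96, Plaur 0.11, Serpine2 0.17 and Plat -0.0165, Spint1 turned to 0.0134, and 6 of the 17 named genes kept their call. The cause was not tested. Leaving out 1 library, 7 to 20 system genes and 2358 to 4029 genes in all were called, and the log2 fold change spanned 2.08 to 2.73 for Plau, 0.22 to 0.49 for Plaur, 0.04 to 0.12 for Plat and 0.71 to 1.04 for Serpine2.

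The sample titles use the same replicate numbers in both groups without saying whether such libraries belong together. Deviations from the group means correlated at 0.191, 0.025 and -0.102 for same-numbered pairs, and not every library correlated best with its own number. These deviations are few and not independent within a group, so they cannot decide whether the libraries are paired. With the replicate block 3706 genes in all (25%) and 14 system genes (31.8%) were called, and Plau had 2.39, Plaur 0.36, Plat 0.08 and Serpine2 0.87. Depth limits Plau (19 to 34 counts per control library) and left 20 of the 64 system genes untested.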

Other observations

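The neighbours of the 4 genes, read as the nearest tested protein-coding gene on each side (chosen after seeing the data), mostly had small values. Beside Plau, Camk2g had a log2 fold change of -0.08 (SE 0.05) and Vcl -0.09 (SE 0.04). Beside Plat, Ikbkb had 0.01 (SE 0.05) and Ap3m2 0.04 (SE 0.10). Beside Plaur, Cadm4, a cell adhesion gene 6055 bp away, rose by 0.27 (SE 0.06, edgeR adjusted p = 0.00228), while Smg9 had -0.24 (SE 0.10, edgeR adjusted p = 0.0884). Beside Serpine2, Mrpl44 had -0.06 (SE 0.06) and Fam124b, 337526 bp away, 0.99 (SE 0.37, edgeR adjusted p = 0.0598).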
